A study of Homo sapiens with 4 samples.

Results

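Annotated retained introns are introns for which the reference annotation already holds both outcomes: at least 1 Ensembl transcript that keeps the intron and at least 1 that splices it out. They were taken from lists of alternative splicing events made from long-read sequencing of Huh7 cells, as the labels name them, which derive from a hepatocellular carcinoma. Every event of the retained intron type with an Ensembl transcript in each form was kept, and the gap between the exon pair of the spliced form was taken as the intron. This gave 4290 events, called members here, out of 19084 retained intron events (22.5%) and 287868 events of all types. The members held 4203 distinct introns, because an intron whose flanking exons had different outer ends was listed more than once. They fell in 2432 genes, of which 2305 (94.8%) received a gene symbol by position. The remaining 14794 retained intron events lacked an Ensembl transcript in at least 1 form.

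The series compared cells transfected with a negative control siRNA (siNC, 2 libraries) with cells transfected with an siRNA against STAMBPL1 (siSTAMBPL1, 2 libraries). STAMBPL1 is a deubiquitinase. All 4 libraries came from the same line, were transfected with lipofectamine 2000 and were sequenced as full-length cDNA on a PacBio Sequel instrument. The labels do not say whether the 2 libraries of a group were separate cultures, so p-values measure only the spread between these samples, which may be technical.

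Splicing removes introns between a donor site, usually GT in the DNA, and an acceptor site, usually AG. An intron that stays in the transcript may hold the RNA in the nucleus, expose it to nonsense-mediated decay or be removed later, and retained introns in mammals tend to be short. Some introns also carry a snoRNA or a microRNA, which is cut from the intron. Mirtrons are a class in which splicing itself forms the microRNA hairpin.

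A member was either present on a library's list or absent, with no read number attached. Each listed event named Ensembl transcripts and transcripts found in that library by long reads, whose identifiers begin with PB. A PB transcript in the retained form kept the intron, and a PB transcript in the spliced form lacked it. The direction was checked on 1560 introns whose splice junction also occurred in a skipped exon event: 6446 transcripts with that junction stood in the spliced form and 0 in the retained form. Where a member had no PB transcript in a library, no long-read transcript of either form was seen there. How such a member came to be listed is not stated. Values for the 4 libraries are given in the order siNC 1, siNC 2, siSTAMBPL1 1, siSTAMBPL1 2.

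Introns short enough to lie whole inside a RefSeq gene start window could be read base by base, and 13 members did. The sequences below are from RefSeq, GRCh38.p14, 5′ to 3′ in the direction of the gene, with the first and last bases at the splice sites in capitals. They are shown because they are the complete stretch that a transcript either keeps or loses. The CLTCL1 intron (chromosome 22, 19196416 to 19196488, minus strand) has 73 bases, and the VPS16 intron (chromosome 20, 2864084 to 2864178, plus strand) has 95. The BTN3A2 intron (chromosome 6, 26368051 to 26368177, plus strand) has 127 bases. The ATF3 interval (chromosome 1, 212615023 to 212615061, plus strand) has 39 bases and begins with TG in place of GT.
CLTCL1: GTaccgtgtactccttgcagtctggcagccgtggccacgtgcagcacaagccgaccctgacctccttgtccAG
VPS16: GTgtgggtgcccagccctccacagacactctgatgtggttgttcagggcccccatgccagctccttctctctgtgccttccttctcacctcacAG
BTN3A2: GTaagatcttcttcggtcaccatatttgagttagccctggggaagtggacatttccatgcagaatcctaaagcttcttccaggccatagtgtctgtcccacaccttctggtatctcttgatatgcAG
ATF3: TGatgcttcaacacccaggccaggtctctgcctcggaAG

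CLTCL1, a clathrin heavy chain, had PB transcripts that kept the intron in 3, 0, 1 and 0 cases and PB transcripts that spliced it in 3, 5, 1 and 2. VPS16, a subunit of vacuolar tethering complexes, had 0, 0, 0 and 1 retained and 2, 2, 1 and 0 spliced PB transcripts. BTN3A2, a butyrophilin, had no PB transcript that kept its intron and 1 spliced PB transcript in every library. ATF3, a stress-induced transcription factor, had 1, 2, 2 and 1 PB transcripts that kept the interval and 0 that spliced it in any library. The donor could be read in the start windows for 64 introns, which have 62 distinct donors, and it was GT in 60 introns, GC in 2, CC in 1 and TG in that of ATF3. The acceptor could be read for 28 introns, with 25 distinct acceptors, and it was AG in each. The CC donor belonged to a 189-base interval of FMNL1, a formin that acts on actin filaments, which is among the members with the most PB transcripts in the retained form.

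Introns of 2 members were microRNA hairpins from end to end. A 79-base intron of ARF1, a small GTPase of Golgi traffic, was the hairpin of MIR3620 (chromosome 1, 228097263 to 228097341, plus strand). A 102-base intron of NELFE, a subunit of the negative elongation factor, was the hairpin of MIR1236 (chromosome 6, 31956839 to 31956940, minus strand). Another 5 hairpins lay inside longer members, in QARS1, VMA12, DDX5, TMEM94 and BCL3. In all, 7 hairpins fell in 9 members, and 6 of the 7 ended on the last base of the intron. MIR8085 in BCL3 ended 2 bases before it. The hairpins of ARF1 and NELFE, written as RNA, begin with GU and end with AG, as introns do. They are given whole, from RefSeq, with mature microRNAs of these members, so that the intron can be compared with its product. Capitals in the mature sequences mark the seed (bases 2 to 8), the part that pairs with targets.
MIR3620 hairpin: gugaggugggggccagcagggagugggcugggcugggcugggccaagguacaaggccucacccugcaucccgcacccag
MIR1236 hairpin: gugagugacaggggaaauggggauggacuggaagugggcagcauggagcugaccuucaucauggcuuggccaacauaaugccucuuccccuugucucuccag
hsa-miR-3620-3p: uCACCCUGcaucccgcacccag
hsa-miR-3620-5p: gUGGGCUGggcugggcugggcc
hsa-miR-1236-3p: cCUCUUCCccuugucucuccag
hsa-miR-1236-5p: uGAGUGACaggggaaaugggga
hsa-miR-6785-5p: uGGGAGGGcguggaugauggug
hsa-miR-4723-3p: cCCUCUCUggcuccuccccaaa
hsa-miR-6890-3p: cCACUGCCuaugccccacag
hsa-miR-3064-3p: uUGCCACAcugcaacaccuuaca
hsa-miR-3064-5p: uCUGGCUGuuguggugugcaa

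No seed in this list occurred in more than 1 of the microRNAs. The ARF1 intron was listed in all 4 libraries and had no PB transcript in either form. The NELFE intron was listed in all 4 libraries with 0 PB transcripts in the retained form and 0, 3, 2 and 1 in the spliced form. The intron of DDX5, an RNA helicase, has 1236 bases with MIR3064 at its 3′ end. It had 2, 2, 1 and 1 PB transcripts that kept it and 4, 6, 5 and 6 that spliced it, so both forms occurred in every library. The 107-base QARS1 intron had 0, 1, 0 and 0 retained and 6, 9, 2 and 4 spliced PB transcripts. The TMEM94 intron had 1, 0, 0 and 0 retained and 6, 6, 3 and 4 spliced ones. Small RNAs were not measured, so whether a hairpin was processed was not tested.

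Genes of small nucleolar RNAs lay inside 84 members of 30 genes, 52 snoRNAs in all, matched by position without regard to strand. EIF4A2, a translation initiation helicase, held SNORD2 in a 1186-base intron listed in all 4 libraries. Its PB transcripts kept the intron in 0, 0, 3 and 0 cases and spliced it in 6, 6, 3 and 6. RPL4, a ribosomal protein, held SNORD18C in a 269-base intron with 1, 2, 3 and 2 retained and 1, 3, 2 and 2 spliced PB transcripts.

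The files held 140317, 142215, 119505 and 94432 events of all types and 32307, 32750, 25463 and 17584 PB transcripts. No source used here gives read numbers, so PB transcripts were the nearest measure of depth, and siSTAMBPL1 replicate 2 had the fewest. STAMBPL1 itself had 3, 6, 1 and 1 events of any type and no member. Of 16 hepatocyte and hepatoma markers, 3 had an event of any type, and the libraries held events for 1, 2, 1 and 1 of them. ALB, AFP, APOA1, TTR and SERPINA1 had none, although the line is labelled as liver. A gene with no event is not shown to be at 0, since a gene with a single transcript form gives no event. Events occurred for 2 of 4 cholangiocyte markers (KRT7 and EPCAM), 2 of 4 endothelial, 1 of 6 fibroblast and 1 of 6 immune markers.

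Members listed in a library numbered 3596, 3571, 3380 and 2993, in 2134, 2139, 2036 and 1864 genes. Both siSTAMBPL1 libraries held fewer than either siNC library. The mean was 3584 ± 17.7 (SD, n = 2) in siNC and 3186 ± 274 (SD, n = 2) in siSTAMBPL1, a ratio of 0.889. The difference had p = 0.333 in an exact two-sided permutation test, the smallest p that 2 libraries against 2 allow. The difference was -397 members with all libraries and -203.5 without siSTAMBPL1 replicate 2. PB transcripts were also fewer in siSTAMBPL1, at a ratio of 0.662, and their part in the result was not tested. These are bulk samples, in which fewer cells of a type and less RNA per cell cannot be told apart.

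Read against all annotated events, which are the events of any type with Ensembl transcripts in both forms, the members took a nearly constant share. It was 5.50%, 5.38%, 5.45% and 5.43%, and the siSTAMBPL1 libraries lay between the siNC libraries. The means differed by 0.0038 percentage points (exact permutation p = 1.0), with a direction that turned when either siNC replicate 2 or siSTAMBPL1 replicate 1 was left out. Against all retained intron events the share was 35.1%, 34.4%, 40.5% and 47.4%, higher in both siSTAMBPL1 libraries by 9.21 percentage points (exact permutation p = 0.333). The rest of those events rest on PB transcripts in at least 1 form, and PB transcripts were fewer in siSTAMBPL1, but their part in this difference was not tested. The median length of the listed introns was 239, 236, 233.5 and 235 bases, a difference of -3.25 bases between the groups (exact permutation p = 0.333).

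All 4 libraries listed 2526 members, 58.9% (exact Clopper-Pearson 95% interval 57.4 to 60.4, counting error only). A further 571 were in 3 libraries, 530 in 2 and 663 in 1. Of the other annotated event types, skipped exons were in all 4 libraries in 64.2%, alternative 3′ splice sites in 62.2% and alternative 5′ splice sites in 56.1% of cases. Alternative first exons reached 35.4% and alternative last exons 24.4%. Retained introns without Ensembl transcripts in both forms reached 5.29%, and 70.7% of them were in a single library. Those events need a PB transcript in at least 1 form in each library that lists them, while members can be listed with none. The definition thus bears on this contrast, and the shares do not compare recurrence on equal terms. The share of members in all 4 libraries was 36.8% where both forms together had 2 Ensembl transcripts, 60.3% with 3 to 5, 75.3% with 6 to 10 and 75.8% with at least 11. Skipped exons had 41.2%, 63.0%, 75.4% and 76.6% in the same classes. These shares are descriptions with no test, since events of a gene share transcripts.

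**Figure D1:**
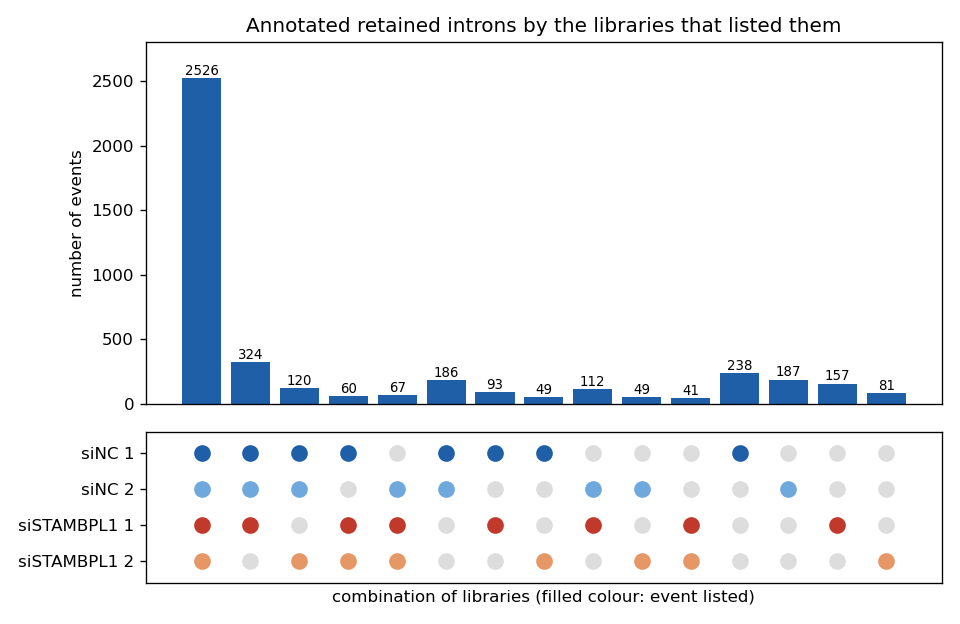
Number of annotated retained introns (vertical axis) for each combination of libraries that listed them (filled dots below each bar). The combination of all 4 libraries holds 2526 events, and the siNC pair alone (186) is taller than the siSTAMBPL1 pair alone (41).

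In the siNC pair alone, meaning both siNC libraries and no siSTAMBPL1 library, 186 members were listed (4.34%), against 4.4% of all annotated events of any type. In the siSTAMBPL1 pair alone 41 members were listed (0.956%), against 1.33% of all annotated events. In the siSTAMBPL1 pair alone, alternative 3′ splice sites had 0.928%, skipped exons 1.02% and alternative 5′ splice sites 1.23%, while first and last exons had 1.68% and 2.15%. For the siNC pair alone these types had 3.75%, 3.37% and 3.86%, and first and last exons 5.40% and 5.44%. The members' share was thus near those of skipped exons and alternative splice sites in the siSTAMBPL1 pair. In the siNC pair it lay above them and below those of first and last exons. Mixed pairs of 1 siNC and 1 siSTAMBPL1 library gave 93, 49, 112 and 49 members, so the siNC pair was the highest and the siSTAMBPL1 pair the lowest of the 6 pairs. Without siSTAMBPL1 replicate 2 the numbers became 306 and 198, a ratio of 0.647 in place of 0.220. With any other library left out they were 373 to 510 and 101 to 122. Restricted to genes with an annotated event in all 4 libraries, 83 and 29 remained in the 2 directions.

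Genes with the most members in both siNC libraries only were led by GMPPA, a regulatory subunit of GDP-mannose synthesis, which had 4, 4, 0 and 0 listed members. TCF3, an E-box transcription factor, MCAM, a cell adhesion molecule, and ARL16, a small GTPase, each had 3, 3, 0 and 0. ARHGAP27, a GTPase activating protein, had 4, 3, 0 and 0. CDK11A, a kinase, had 3, 2, 0 and 0, and STX10, a syntaxin, and ENSG00000008988 each had 2, 2, 0 and 0. NECAP1, a clathrin coat protein, had 8, 8, 6 and 5 members over 10 events, so only part of its introns showed the pattern. TTLL3, a tubulin glycylase, had 3, 3, 2 and 2, with 3 introns in the siNC pair alone and 2 others in the siSTAMBPL1 pair alone.

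In the opposite direction GALT, the uridylyltransferase of galactose breakdown, had 3 members in the siSTAMBPL1 pair alone, yet 7, 12, 10 and 9 members in all. ENTREP1 had 0, 0, 2 and 2. ST7L, ARAF (a Raf kinase), FAM234B and RASSF7 each had 0, 0, 1 and 1. ZNF446, a zinc finger gene, had 0, 1, 1 and 2, and NUBP2, an iron-sulfur cluster assembly factor, had 2, 0, 4 and 5. PQBP1, a polyglutamine-binding protein that acts in splicing, had 1, 2, 3 and 3. No quantity is attached to single events, so none of these genes was tested.

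The introns were short. The shortest was 1 base, the median 240 and the longest 11960 bases, with 110 at the lower and 576 at the upper quartile. Retained introns without Ensembl transcripts in both forms had a median of 373 bases and a maximum of 6187. Lengths of 70 to 99 bases made up 17.3% of the members, which is the tallest part of the plot of lengths. A length that was a multiple of 3 occurred in 1411 members (32.9%, exact 95% interval 31.5 to 34.3). The longest members listed in all 4 libraries were in PAWR (7462 bases), TOGARAM2 (6345), PLEKHA1 (6230), NPAS2 (5701) and SLC22A5 (5665). NPAS2, a circadian transcription factor, had 32, 23, 19 and 11 PB transcripts in the spliced form and none in the retained form. SLC22A5, a carnitine transporter, had 2, 1, 1 and 1 spliced and none retained. PLEKHA1, a phosphoinositide-binding protein, had 3, 5, 4 and 6 spliced and none retained. PAWR and TOGARAM2 had no PB transcript in either form.

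**Figure D2:**
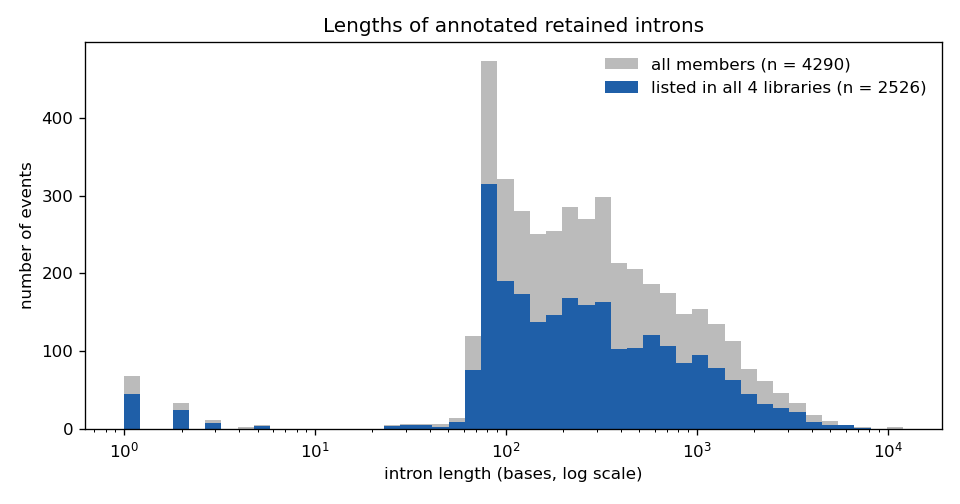
Number of annotated retained introns (vertical axis) by intron length in bases (log scale), for all 4290 members in grey and the 2526 listed in all 4 libraries in blue. A peak stands at 70 to 99 bases and a separate group at 1 to 5 bases.

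At the short end, 118 members in 97 genes had an interval of 1 to 5 bases, too short to be spliced as an intron, and no member had 6 to 23 bases. There were 68 intervals of 1 base, 33 of 2, 11 of 3, 2 of 4 and 4 of 5. In 112 of the 118, a single Ensembl transcript carried the interval as a gap. Over 390 listings of these members, 0 had a PB transcript with the gap, while 94 of the 118 had a PB transcript without it in at least 1 library. Only 9 of the other retained introns (0.0608%) were this short. Examples are 1-base gaps in KMT2E, a chromatin regulator, with 7, 5, 5 and 1 PB transcripts in the retained form, and in MCCC1, a leucine-breakdown enzyme, with 2, 5, 6 and 3. TOM1, an endosomal protein, had 3, 5, 6 and 4, CDK13, a transcription kinase, had 1, 1, 1 and 0, and CFAP263 had 1, 0, 2 and 0. In these 118 members the retained form is the continuous exon.

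Among members of at least 70 bases and listed in all 4 libraries, the shortest were 70-base introns. ATP13A1, a P5-type transport ATPase, had 4, 4, 2 and 2 PB transcripts that kept its intron and 24, 18, 14 and 9 that spliced it. HIP1R, an actin and clathrin adaptor, had 3, 3, 2 and 1 retained and 6, 8, 7 and 3 spliced PB transcripts. DNAJC2, a ribosome-associated chaperone, had 4, 4, 0 and 2 retained and 0, 3, 1 and 0 spliced ones. HOOK2 and RNF207 had spliced PB transcripts and none that kept the intron. Both forms of a 70-base intron were thus seen in ATP13A1 and HIP1R in every library.

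PB transcripts kept the intron in 34.5%, 34.2%, 32.8% and 28.2% of the members listed in each library, and spliced it in 52.0%, 53.5%, 51.5% and 47.5%. No PB transcript stood in either form in 30.7%, 29.8%, 31.5% and 35.5%. The share with the retained form was lower in both siSTAMBPL1 libraries, with a difference of -3.83 percentage points between the means (34.3% ± 0.184 against 30.5% ± 3.20, SD, n = 2 each, exact permutation p = 0.333). The difference was -1.57 points without siSTAMBPL1 replicate 2 and -6.09 points without siSTAMBPL1 replicate 1. The spliced form moved the same way, with a difference of -3.22 points. Counted over transcripts instead, PB transcripts stood in the retained form of a member 3352, 3274, 2599 and 1645 times and in the spliced form 7588, 7524, 5840 and 3823 times. The retained share of these was 30.6%, 30.3%, 30.8% and 30.1%, with siNC inside the range of siSTAMBPL1. Its means were 30.5% ± 0.226 and 30.4% ± 0.509 (SD, n = 2 each, exact permutation p = 1.0), and their order turned under several alternatives. A transcript that spans several members is counted at each.

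**Figure D3:**
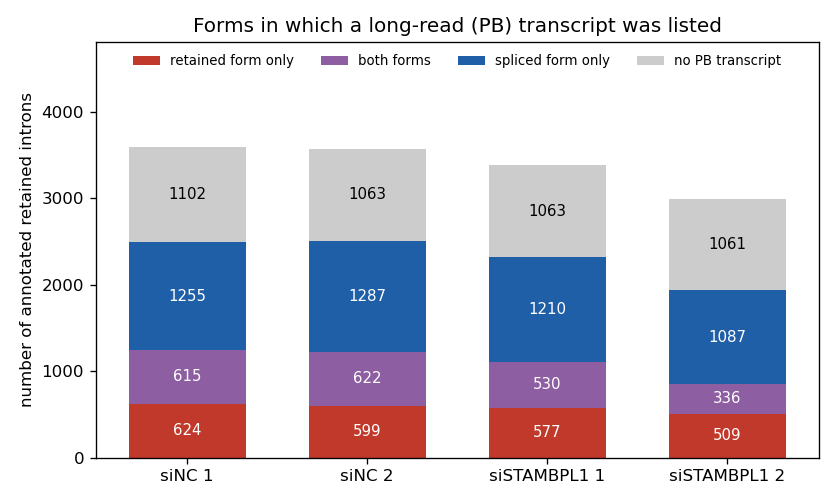
Members listed in each library (vertical axis, number of introns), split by whether PB transcripts stood in the retained form only, in both forms, in the spliced form only or in neither. Members without a PB transcript number 1061 to 1102 in every library, while those with both forms range from 336 in siSTAMBPL1 2 to 622 in siNC 2.

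Among the 2526 members of all 4 libraries, a PB transcript kept the intron in all 4 libraries in 433, in 3 in 271, in 2 in 263, in 1 in 429 and in none in 1130. The spliced form occurred in all 4 libraries in 1032 members and in none in 678. Both forms were seen in every library in 141 members. Over all 4290 members, 994 (23.2%) had no PB transcript in any library. A retained-form PB transcript in the siNC pair alone was found for 75 members (2.97%). The same pattern held for 2.55% of annotated events of all types listed in all 4 libraries, taking the first form of each event. What the first form is differs between event types. The reverse was found for 15 members (0.594%), against 0.891% of those annotated events. The spliced form gave 76 (3.01%) and 18 (0.713%), for which no share over all annotated events was computed. Both retained-form shares were near those of annotated events listed in all 4 libraries, so they say nothing particular about the members.

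The retained form was seen least often in the longest introns. In the 2526 members of all 4 libraries, PB transcripts kept intervals of 1 to 5 bases in 88.5%, 84.6%, 84.6% and 68.0% of cases. The share was 45.1%, 45.3%, 38.7% and 31.8% at 70 to 99 bases, and 34.9%, 36.1%, 31.9% and 27.4% from 200 to under 500 bases. It was 28.8%, 27.6%, 25.9% and 22.6% from 1000 to under 2000 bases, and 7.92%, 11.9%, 9.90% and 9.90% from 2000 bases. These 5 classes stood in the same order in each library, but neighbouring classes did not always. At 6 to 69 bases the share in siSTAMBPL1 2 was 31.6%, just below the 31.8% at 70 to 99, and from 100 to under 200 bases that in siSTAMBPL1 1 was 38.7%, level with 70 to 99. From 70 bases up the spliced form also became less frequent, by less: 66.5%, 68.2%, 66.3% and 57.8% at 70 to 99 bases and 55.4%, 61.4%, 57.4% and 53.5% from 2000 bases. Transcript length limits were not tested.

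**Figure D4:**
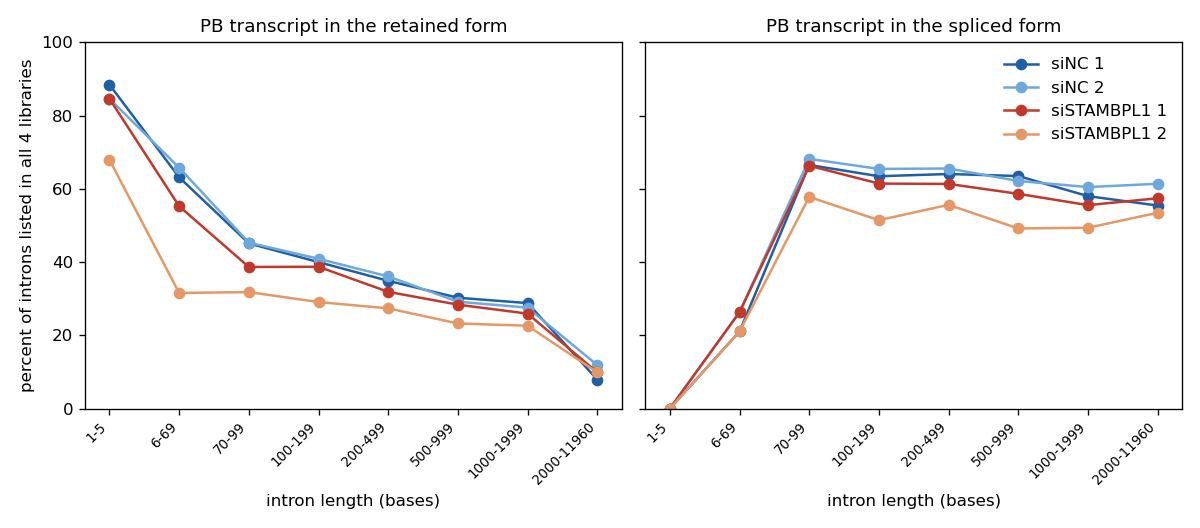
Percent of the introns listed in all 4 libraries (vertical axis) with a PB transcript in the retained form (left) or the spliced form (right), by intron length class in bases. Each line is 1 library. The retained form falls from 68.0 to 88.5% at 1 to 5 bases to 7.92 to 11.9% from 2000 bases, and the spliced form is 0 at 1 to 5 bases.

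The annotation itself was uneven between the forms. A single Ensembl transcript carried the retained form in 75.6% of members, and a single one carried the spliced form in 39.7%. Ensembl had more spliced than retained transcripts in 56.4% of members and fewer in 14.4%. The PB transcripts followed this order among introns of at least 70 bases in all 4 libraries. Where Ensembl had more retained transcripts (273 members), PB transcripts kept the intron in 71.4%, 69.2%, 59.3% and 54.6% and spliced it in 22.3%, 23.8%, 22.3% and 15.4%. Where Ensembl had more spliced transcripts (1683 members), PB transcripts kept it in 30.8%, 31.3%, 29.1% and 21.9% and spliced it in 76.9%, 78.4%, 73.7% and 65.8%. In 178 members PB transcripts kept the intron in every library and none spliced it in any, of which 48 were gaps of at most 5 bases and 123 had at least 70 bases. In 418 members PB transcripts spliced the intron in every library and none kept it, with a median length of 308.5 bases.

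The members with the most PB transcripts in the retained form fell into these same kinds. CCNL2, cyclin L2, a splicing-linked cyclin, led with a 5-base gap kept in 31, 35, 26 and 22 PB transcripts, and its 431-base intron was kept in 17, 17, 15 and 13 and spliced in 3, 7, 2 and 2. That intron lies at chromosome 1, 1390866 to 1391296, minus strand. CDK16, a PCTAIRE kinase, had a 144-base interval kept in 27, 18, 27 and 20 PB transcripts and spliced in none, and 10 Ensembl transcripts keep it against 1 that splices it. A 1-base gap of GAPVD1, an endocytic regulator, had 28, 36, 13 and 14, and a 5-base gap of RAP1GAP, a GTPase activating protein, had 20, 13, 13 and 8, with none spliced.

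The 189-base interval of FMNL1, whose donor bases are CC, was kept in 10, 12, 18 and 14 PB transcripts and spliced in none. SEMA3B, a secreted semaphorin, had an intron with alternative acceptors: its 112-base form was kept in 16, 17, 10 and 9 PB transcripts and spliced in 5, 9, 7 and 3. The 97-base form shared the retained transcripts and was spliced in 0, 1, 0 and 0. TCIRG1, a subunit of the vacuolar proton pump, had a 339-base intron kept in 20, 16, 9 and 7 and spliced in 8, 13, 10 and 6. An 82-base intron of RHOT2 was kept in 19, 14, 13 and 6 and spliced in 7, 14, 5 and 7. CCNL2, SEMA3B at 112 bases, TCIRG1 and RHOT2 had both forms in every library, while CDK16, FMNL1 and the gaps had the retained form only.

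Most genes had a single member: 1517 of 2432 had 1 event, 501 had 2 and 414 had at least 3. By RefSeq type, 2211 were protein-coding (90.9%, against 87.4% of genes with any annotated event), and 69 were lncRNA genes with 163 members. Among protein-coding genes, introns of at least 70 bases lay at a median of 64.7% of the gene's span from its start, with quartiles at 37.7% and 85.0% (3735 members). The donor also served an annotated alternative 5′ splice site event in 24.9% of members, and the acceptor an annotated alternative 3′ splice site event in 29.8%. Neither site did in 56.3%.

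SPG7, a mitochondrial protease subunit, had the most members, 18, of which 18, 12, 11 and 5 were listed. RHOT2, a mitochondrial GTPase, had 16, of which 15, 16, 14 and 15 were listed. Summed over its overlapping members, where a transcript is counted once at each, PB transcripts stood in the retained form 70, 62, 42 and 23 times and in the spliced form 192, 174, 111 and 82 times. GALT had 15. DGKA, a diacylglycerol kinase, had 14, of which 12, 13, 14 and 9 were listed. EIF2B5, a subunit of the initiation factor eIF2B, had 14, QARS1, a glutaminyl-tRNA synthetase, had 13, and TAFAZZIN, a cardiolipin-remodelling enzyme, had 12. AAAS, a nuclear pore protein, had 11. SNHG29 had 12, of which 5, 11, 7 and 0 were listed, and SNHG1 had 12, of which 12, 0, 0 and 0 were listed. SNHG1 and SNHG29 are snoRNA host genes, and neither had a PB transcript in the retained form of any member. Their spliced forms had hardly any either: 0, 0, 3 and 0 summed over SNHG29 members and none for SNHG1. SPG7 and RHOT2 differ in spread: RHOT2 members were listed in nearly equal number in all libraries, and SPG7 members were fewest in siSTAMBPL1 2.

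**Figure D5:**
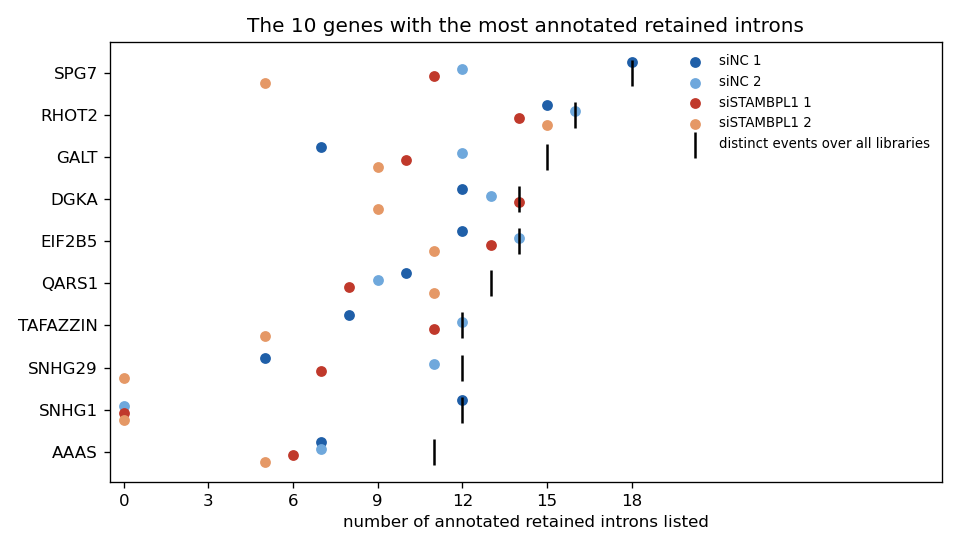
The 10 genes with the most annotated retained introns, with the number listed in each library (horizontal axis, coloured points) and the number of distinct events over all libraries (black mark). SNHG1 members appear in siNC 1 alone, while RHOT2 ranges from 14 to 16.

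Genes known from other studies for detained or regulated retained introns had 53 members in 24 of the 40 genes listed. Of these, 45 (84.9%) were in all 4 libraries, against 58.9% of all members, and 50, 51, 53 and 46 were listed. Their median length was 628 bases, against 240. None was confined to the siNC pair and 1 to the siSTAMBPL1 pair. The 53 are all members of these genes, not only the introns described in other studies. They include a 5-base interval of CCNL2 and a 31-base interval of CLK4. The CLK1, CLK3 and CLK4 kinases, which phosphorylate SR proteins, had few PB transcripts: the 1491-base CLK1 intron was kept in 0, 1, 0 and 1 and spliced in 0, 1, 0 and 0. OGT, the O-GlcNAc transferase, had a 3271-base intron kept in 0, 1, 1 and 1 and spliced in 3, 1, 0 and 1. MAT2A, which makes S-adenosylmethionine, had a 191-base intron kept in 2, 5, 1 and 0 and spliced in 4, 9, 5 and 6. NXF1, the mRNA export receptor, had its 1801-base intron kept in 2, 2, 1 and 1 and spliced in 2, 1, 1 and 2. LMNA, lamin A/C, had an 84-base intron kept in 3, 4, 3 and 1 and spliced in 11, 10, 11 and 7. Both forms of the NXF1 and LMNA introns were seen in every library.

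SR proteins, which promote splicing, had 9 members in 4 of 14 genes, and 8 were in all 4 libraries. All 9 were already counted among the genes known for detained or regulated retained introns, so this is not a separate result. HNRNPH1, HNRNPL and NXF1 of the lists that follow were also counted there. SRSF5 held 6 of the SR protein members. SRSF7 had an 875-base intron kept in 1, 3, 4 and 3 and spliced in 0, 3, 1 and 3 PB transcripts. HnRNP proteins had 21 members in 11 of 26 genes, 15 of them in all 4 libraries. HNRNPH1 had 6, with 5, 6, 6 and 3 listed, and PTBP1 had 4, with 2, 4, 4 and 2 listed. HNRNPM had a 117-base intron kept in 2, 6, 7 and 4 and spliced in 4, 6, 5 and 5. Core spliceosome and splice site recognition genes had 22 members in 15 of 48 genes, 14 of them in all 4 libraries. U2AF1L4, a relative of the 3′ splice site factor U2AF1, had 3 members, all listed in siNC 1 alone.

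RNA export and retention genes had 18 members in 8 of 22 genes, 12 of them in all 4 libraries. DDX39A, an export helicase, had 5 members, with 4, 5, 4 and 4 listed. CHTOP, of the TREX export complex, had a 1641-base intron kept in 7, 6, 5 and 3 and spliced in 3, 1, 1 and 2 PB transcripts. Genes of nonsense-mediated decay had 6 members in 4 of 17 genes, with 6, 5, 3 and 3 listed and 2 in the siNC pair alone, a pattern of 4.34% of all members. CASC3, of the exon junction complex, had a 283-base intron kept in 5, 5, 1 and 2 PB transcripts and spliced in none. The CHTOP and CASC3 introns were kept in every library.

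Among snoRNA host genes, 13 of 20 had 74 members, of which 62, 47, 33 and 27 were listed. Of these, 18 (24.3%) were in all 4 libraries, 4 in the siNC pair alone and 0 in the siSTAMBPL1 pair alone, where all members had 4.34% and 0.956%. GAS5 had 6, 2, 6 and 2 listed members of 6, SNHG15 had 7, 7, 6 and 3 of 7, and SNHG5 had 7, 0, 0 and 0 of 7. RACK1, a ribosome-bound scaffold, had 5, 5, 1 and 5 listed. Its 5 members lie in the same stretch, and their shared retained form had 2, 4, 0 and 1 PB transcripts. Cytosolic ribosomal protein genes, counted only where a symbol was assigned, had 65 members in 36 of 79 genes, with 59, 55, 53 and 32 listed. In all 4 libraries were 24 (36.9%), with 5 in the siNC pair alone and 0 in the siSTAMBPL1 pair alone, again beside 4.34% and 0.956% of all members. RPS2 had 6, 2, 6 and 0 listed, RPS16 had 4, 3, 4 and 0, and RPL10A had 4, 4, 2 and 0. RPL13 and RPL13A had all 4 of their members in every library. For both lists the fewest members were in siSTAMBPL1 replicate 2, the library with the fewest PB transcripts. ENSG00000008988, which holds SNORD54 and has 2 members in the siNC pair alone, received no symbol and so could not be counted in either list.

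Liver secreted and metabolic genes had 7 members in 4 of 46 genes. CFB, complement factor B, had 3 members, all in every library. Its 292-base intron was kept in 6, 6, 4 and 2 and spliced in 5, 5, 4 and 2 PB transcripts. PCK2, the mitochondrial phosphoenolpyruvate carboxykinase, had an 87-base intron spliced in 1, 2, 4 and 1 and kept in none. Ubiquitin and endosomal sorting genes, the surroundings of STAMBPL1, had 11 members in 5 of 28 genes, with 8, 9, 8 and 7 listed and none confined to either pair. HGS, an ESCRT subunit, had a 70-base intron kept in 4, 3, 7 and 1 and spliced in 12, 12, 8 and 4 PB transcripts. Both forms of the HGS intron were seen in every library.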

How the data were processed

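Each library has 1 deposited list of alternative splicing events. Per the file headers, it gives a gene, an event, the transcripts of the first form and those of either form, with no quantity. Per the submitters' processing notes the build was hg38. Callers and read numbers: not given in the sources used here. Members and gene lists were chosen with earlier results of these data known. Ensembl transcripts of an event were the same in every library (0 mismatches). Genes were named by position and strand from RefSeq (GRCh38.p14): 10763 matched, 133 were ambiguous and 1035 had no candidate. Gene lists were matched by symbol, so a listed gene that received none was not counted. Rules of size and rank named the 10 genes with most members, the 10 leading each group-only direction and the 5 longest and shortest introns. They also named the 10 members with most retained-form PB transcripts. Genes of the lists were planned as up to 5 a list by number of members, but the text did not always keep to this. List genes named out of rank, and other introns named, were chosen after their values were seen. Library values were compared by exact two-sided permutation (Python 3.11.15, SciPy 1.17.1), single events not at all. Reading of the events was tested on simulated data. Alternatives were 1 member per intron, genes in all libraries, 2 Ensembl transcripts a form, introns from 70 bases, left-out replicates and a replicate block.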

Additional observations from a re-analysis of the deposited data

How the results depend on the processing

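Of 79 recomputed values, 53 stayed, 19 moved and 7 changed sign; none could pass a threshold, with 2 libraries against 2. Leaving out replicates in turn gave differences (siSTAMBPL1 minus siNC) of -590.5 to -203.5 members per library, -4.75 to -1.75 bases of median length and -6.09 to -1.57 percentage points for members with a retained-form PB transcript. The share among annotated events (0.0038 points) ranged from -0.0571 to 0.0647 (-0.00636 without siSTAMBPL1 replicate 1), and was -0.109 with at least 2 Ensembl transcripts a form. The retained share of PB transcripts (-0.0393 points) ranged from -0.396 to 0.317 (0.120 without siNC replicate 1), and was 1.17 with at least 2 Ensembl transcripts a form and 0.321 without introns under 70 bases. The causes were not tested. With replicates left out, which asks for fewer libraries, siNC-only members ranged from 306 to 510, siSTAMBPL1-only members from 101 to 198, their ratio from 0.239 to 0.647, and the share in every library from 63.0 to 67.7%; these and the share of PB transcripts were alternatives chosen after seeing the data. In genes with an annotated event in all 4 libraries there were 83 siNC-only members, the ratio was 0.349 and the share in all 4 was 73.2%. With at least 2 Ensembl transcripts a form there were 20 and 3 members, and the share was 63.6%; far fewer members (505) are left. With the replicate block the differences were as in the unpaired comparison (-397 members per library, p = 0.5, the exact sign permutation minimum); same-numbered libraries did not deviate together (correlation -0.0236), so the numbers were not taken as a pairing. Without read numbers, absence from a list cannot be told from lack of depth.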

Other observations

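Some introns of all 4 libraries had a retained-form PB transcript in both libraries of 1 group only. The examples given were picked after their values were seen and not strictly by rank. In both directions others with as many or more such transcripts than some examples are not named, and none was tested. In SRSF5, an SR protein, a 285-base and a 1215-base intron were kept in 0, 0, 3 and 1 PB transcripts each. The pair shares outer event boundaries, so the same transcripts may be counted in both. A second event of the 1215-base SRSF5 intron, with other flanking exon ends, was kept in 4, 3, 4 and 3 PB transcripts. CYP3A5, a cytochrome P450, had a 108-base intron kept in 0, 0, 3 and 1 and spliced in 2, 1, 1 and 3. PLOD3, a collagen lysyl hydroxylase, had a 302-base intron kept in 0, 0, 1 and 2 and spliced in 6, 9, 5 and 3. USP15, a deubiquitinase, had a 79-base intron kept in 0, 0, 1 and 2 and spliced in 2, 1, 1 and 1.

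In the other direction, DPH7, a diphthamide synthesis enzyme, had a 126-base intron kept in 4, 4, 0 and 0 and spliced in 12, 12, 10 and 3 PB transcripts. RC3H2, a roquin family RNA-binding protein, had an 82-base intron kept in 3, 5, 0 and 0 and spliced in none. SEMA3B had a 305-base intron kept in 4, 2, 0 and 0 and spliced in 3, 7, 10 and 5. BECN1, beclin 1 of autophagy, had a 106-base intron kept in 2, 3, 0 and 0 and spliced in 6, 1, 1 and 2. All of these rest on 1 to 5 transcripts a library, and the siSTAMBPL1 libraries held fewer PB transcripts.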
